A study of Mus musculus with 17 samples.

Results

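The comparison described here set colon tumors of mice without Tyk2 in the intestinal epithelium (Tyk2ΔIEC, labelled Tyk2DIEC, 4 libraries) against tumors of floxed mice without Cre (Tyk2fl/fl, labelled Tyk2fl, 7 libraries). The members are the 11 libraries of these genotypes out of the 17 in the series, taken by the genotype in their labels, and all genes counted in them. Of 55421 genes in the table, 17668 had enough reads to be tested. Tyk2ΔIEC mice carried the floxed Tyk2 allele on both chromosomes and a Cre transgene under the Villin promoter, which is active in intestinal epithelial cells, so that stromal and immune cells of the tumors kept the intact gene. Tyk2fl/fl mice carried the same floxed allele without the transgene, so that the effect of Cre itself cannot be told apart from that of the deletion. All mice were kept on a C57BL/6 background and received the mutagen azoxymethane (AOM) and, later, repeated cycles of dextran sulfate sodium (DSS) in the drinking water, which injures the colon and leads to inflammation-driven tumors. Age and sex of the animals are not given in the sources used here. Tumors of Tyk2+/+ mice (labelled Tyk2wt, 3 libraries, neither floxed nor Cre-bearing) underwent the same treatment and are shown beside the main comparison. The labels describe dissected tumors, while the study's legend speaks of pooled tumor samples, and no source says whether each library came from a separate mouse. The p-values therefore measure the spread between these libraries, which may be technical in part.

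Tyk2 is a Janus kinase. It sits on the receptors of type I interferons, interleukin 12, interleukin 23 and interleukin 10 family members, and phosphorylates Stat factors when the ligand binds. After type I interferon, Stat factors join Irf9 and bind interferon-stimulated response elements (ISRE), whereas Stat pairs formed after interferon γ bind gamma-activated sites (GAS). The genes behind these elements include antiviral effectors, immunity-related GTPases and the antigen presentation machinery. In the intestine, interferon signaling in the epithelium limits infection, and its products such as Ido1 and Cd274 restrain T cells.

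Values are raw read counts. Levels are given as CPM (read counts relative to the library total, as edgeR's cpm gives them) after TMM scaling of those totals, and changes as log2 fold changes of Tyk2ΔIEC over Tyk2fl/fl with standard errors (SE) from edgeR's quasi-likelihood test. A gene was called higher or lower at a Benjamini-Hochberg adjusted p under 0.05 and a change over 2-fold. Counts on genes totalled 19129696 to 20334948 in Tyk2ΔIEC and 29777763 to 35427965 in Tyk2fl/fl libraries, against 19789347 to 21318077 in Tyk2+/+ libraries. Sequencing depth is thus confounded with the genotype in the main comparison, but not in that of Tyk2ΔIEC with Tyk2+/+. Mitochondrial genes took 1.82% to 2.68% of the counts in Tyk2ΔIEC and 2.5% to 4.88% in Tyk2fl/fl libraries. Sex-linked transcripts also differed between the groups. Xist, the RNA that coats the inactive X chromosome, had at most 0.516 CPM in Tyk2ΔIEC libraries, against 1209 to 1277 CPM in Tyk2fl/fl replicates 1 to 3 and at most 3.08 CPM in replicates 4 to 7. The Y-linked genes Ddx3y, Eif2s3y, Kdm5d and Uty summed to 5307 to 5903 counts in Tyk2ΔIEC libraries, against 3, 4, 3 and 0 counts in Tyk2fl/fl replicates 1 to 4 and 6954 to 9011 counts in replicates 5 to 7. Replicate 4 therefore had neither Xist at the high level nor Y-linked reads, and the 3 controls that shared Y-linked reads with every Tyk2ΔIEC library were replicates 5 to 7. Counts are therefore also given with these 3 controls alone.

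The targeted gene was not lower in reads over the whole gene. Tyk2 had 52.8, 56.3, 53.6 and 51.7 CPM in Tyk2ΔIEC tumors, against 42.7 to 54.6 CPM (median 51.1) in Tyk2fl/fl tumors, and the groups overlapped (log2 fold change 0.10, SE 0.07, adjusted p = 0.321). According to the study the floxed part is a single exon with the start codon. Counts per gene cannot show its loss, so the deletion was not checked here. The study itself found no reads over this exon in most, though not all, Tyk2ΔIEC tumors, and greatly reduced expression of it by qPCR. The tissue was epithelial in both groups. None of 12 pan-epithelial markers was called, with a median log2 fold change of -0.10. Epcam, an epithelial adhesion molecule, had 1827, 1885, 1882 and 2227 CPM in Tyk2ΔIEC and 1757 to 2577 CPM in Tyk2fl/fl tumors. Vil1, whose promoter drives Cre, had 374 to 441 CPM in Tyk2ΔIEC and 278 to 454 CPM in Tyk2fl/fl tumors.

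In Tyk2ΔIEC tumors 262 genes were higher (1.48% of those tested) and 289 lower (1.64%). By the adjusted p alone 1799 were higher (10.2%) and 1716 lower (9.71%). The libraries of the groups did not overlap for 2702 of all genes (15.3%), among them 176 of the genes called higher and 212 of those called lower. Of 14697 protein-coding genes 150 were higher and 71 lower, and most lower genes belonged to other classes. With Tyk2fl/fl replicates 5 to 7 as the only controls, 331 genes were higher and 291 lower (213 and 79 protein-coding). The rise and fall of protein-coding genes is shown in the plot of all genes tested, and the level of selected genes in every library in the plot by library.

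**Figure D1:**
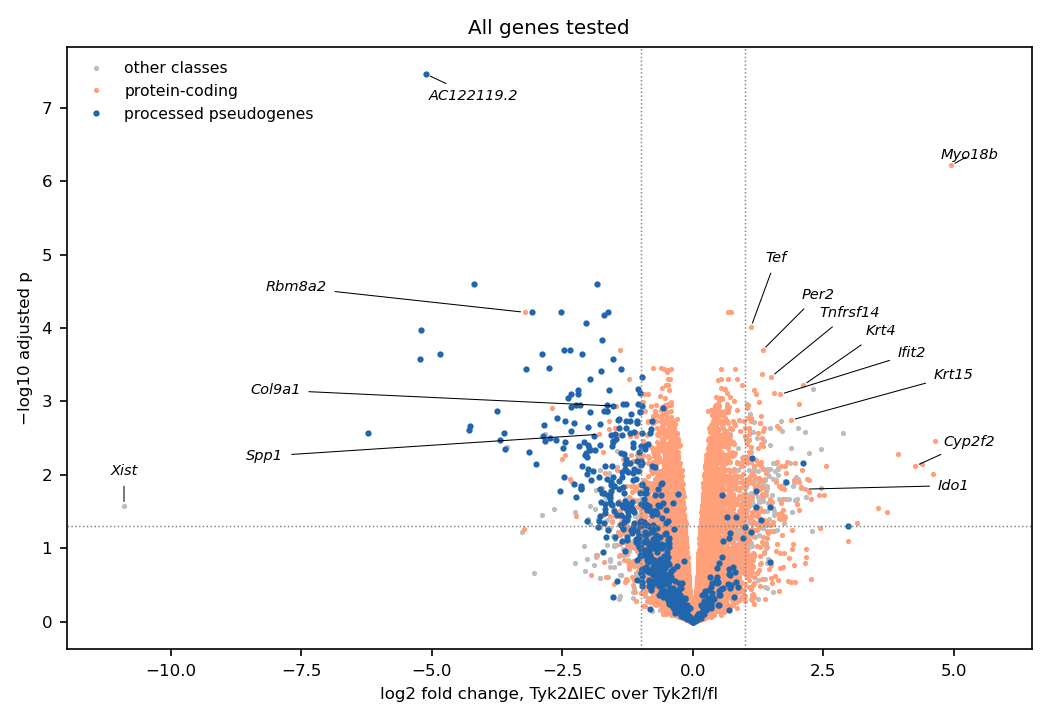
Log2 fold change of Tyk2ΔIEC over Tyk2fl/fl tumors (x axis) against −log10 of the adjusted p (y axis) for the 17668 genes tested, by gene class, with dotted lines at 2-fold and at an adjusted p of 0.05. Protein-coding genes were called mostly on the right (150 higher, 71 lower), and processed pseudogenes, with the transcribed ones, mostly on the left (180 lower).

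**Figure D2:**
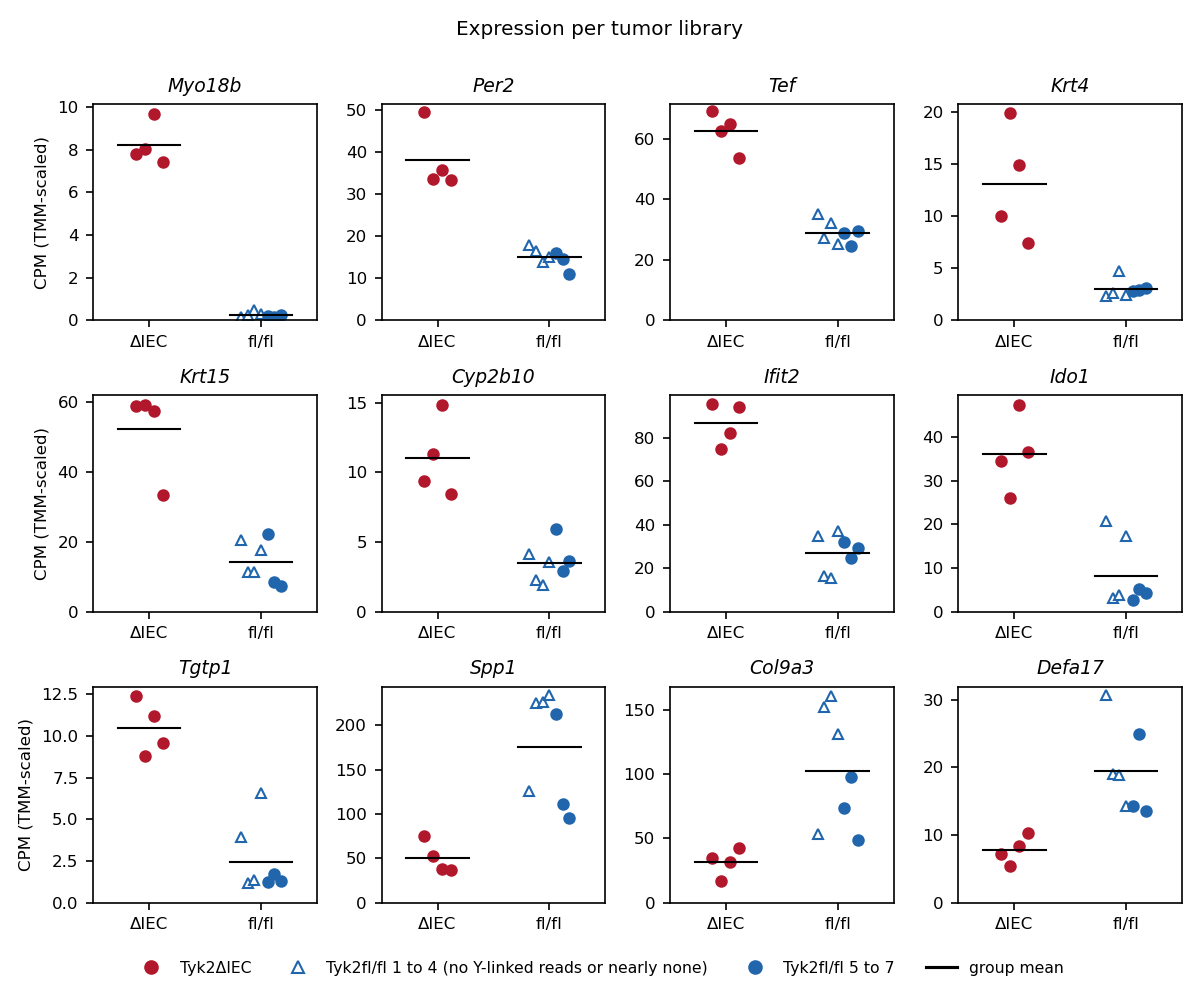
CPM of 12 genes (y axes, each starting at 0) in the 4 Tyk2ΔIEC and 7 Tyk2fl/fl libraries, with bars at the group means. Open triangles are Tyk2fl/fl replicates 1 to 4, which had almost no Y-linked reads, and filled circles replicates 5 to 7. Ido1 reached 20.7 and 17.5 CPM in Tyk2fl/fl replicates 1 and 4, below the lowest Tyk2ΔIEC library at 26.2 CPM.

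Interferon-stimulated genes rose in Tyk2ΔIEC tumors. Of the lists of ligands, receptors and kinases no tested gene was called, but the interferons themselves could not be tested. Of 14 interferon and interleukin 12 family ligands 5 had enough reads, and none was called. Those tested were Il23a, Ebi3, Il18, Il15 and Il6. The interferon genes Ifng, Ifnb1, Ifnl2 and Ifnl3 were not tested, nor were Il12a, Il12b, Il27, Il10 and Il22. Of 12 receptors that use Janus kinases none was called. Il22ra1, a subunit of the interleukin 22 receptor of epithelial cells, lay just under 2-fold with a log2 fold change of 1.00 (adjusted p = 0.00298). Of 22 Janus kinases, Stat factors and their inhibitors none was called, with a median of 0.14. By the adjusted p alone 5 of them were higher and 1 lower, against 10.2% and 9.71% of all genes. Jak2, the kinase partner of Tyk2 on the interleukin 12 receptor, had 105 to 134 CPM in Tyk2ΔIEC and 80.5 to 102 CPM in Tyk2fl/fl tumors (0.32, SE 0.08, adjusted p = 0.0187). Irf7, which amplifies type I interferon production, had 58.3 to 91.4 CPM in Tyk2ΔIEC and 36.6 to 58.7 CPM in Tyk2fl/fl tumors (0.62, adjusted p = 0.0129). Stat3, which acts downstream of interleukin 10 family receptors, had 235 to 272 CPM in Tyk2ΔIEC and 234 to 286 CPM in Tyk2fl/fl tumors and did not pass the test.

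The promoters of 3 higher genes are shown because they hold the letters of interferon response elements. The sequences are those of RefSeq on GRCm38.p6, from 250 bases before to 50 bases after the transcription start, on the strand of the gene. They were searched on both strands for GAAANNGAA (the core of the ISRE) and TTCNNNGAA (GAS), and capitals mark the matches. Ddx60 (chr8:61927837-61928136, plus strand), a helicase that aids RNA sensing, carried the ISRE core at positions -53 and -19 from the start. Tgtp1 (chr11:48992197-48992496, minus strand), an immunity-related GTPase, carried a GAS at -88 followed by the ISRE core at -77. Cd274 (chr19:29367188-29367487, plus strand), the ligand of the T cell checkpoint Pdcd1, carried the ISRE core on the opposite strand at -76.
Ddx60: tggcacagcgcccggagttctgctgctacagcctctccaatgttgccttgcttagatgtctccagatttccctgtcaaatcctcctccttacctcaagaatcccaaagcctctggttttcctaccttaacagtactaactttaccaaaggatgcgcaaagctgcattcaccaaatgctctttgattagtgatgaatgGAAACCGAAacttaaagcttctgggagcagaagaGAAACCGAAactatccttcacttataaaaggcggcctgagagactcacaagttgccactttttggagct
Tgtp1: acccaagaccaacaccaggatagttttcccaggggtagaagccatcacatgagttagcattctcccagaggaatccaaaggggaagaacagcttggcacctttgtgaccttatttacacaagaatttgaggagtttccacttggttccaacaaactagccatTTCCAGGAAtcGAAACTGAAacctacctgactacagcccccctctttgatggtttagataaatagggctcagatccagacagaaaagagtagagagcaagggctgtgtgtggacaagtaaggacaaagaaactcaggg
Cd274: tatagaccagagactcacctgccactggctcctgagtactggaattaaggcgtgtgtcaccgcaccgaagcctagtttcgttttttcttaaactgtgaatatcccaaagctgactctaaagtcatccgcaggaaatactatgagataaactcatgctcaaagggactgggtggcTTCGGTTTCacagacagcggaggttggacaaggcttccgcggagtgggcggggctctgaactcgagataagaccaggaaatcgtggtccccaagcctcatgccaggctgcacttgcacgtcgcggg

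Of 28 members of the interferon and antigen presentation lists called higher, 19 had a promoter in the RefSeq table. The ISRE core was found in 15 of them (78.9%), against 8.56% of all 27025 promoters and 7.33% of those of 11444 tested protein-coding genes. Among protein-coding genes called higher outside these lists it was found in 10 of 88 (11.4%), and among those called lower in 2 of 40 (5.0%). The GAS letters were found in 5 of the 19 (26.3%), against 8.35% of all promoters. A match describes the letters in this window and not binding, and the lists hold genes known for their response to interferon.

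Type I interferon-stimulated genes rose in Tyk2ΔIEC tumors. Of 46 tested, 11 were higher and none lower, against 1.48% of all genes higher, and 35 were higher and 1 lower by the adjusted p alone, against 10.2% and 9.71%. Their median log2 fold change was 0.70. Ifit2, which binds foreign RNA, had 95.4, 74.8, 82.1 and 94.3 CPM in Tyk2ΔIEC tumors, against 15.6 to 36.9 CPM (median 29.2) in Tyk2fl/fl tumors. The groups did not overlap, and Ifit2 rose by 1.68 (SE 0.21, adjusted p = 0.000799). Ddx60 had 26.3, 21.2, 23.1 and 31.8 CPM in Tyk2ΔIEC tumors, against 6 to 11.9 CPM (median 8.92), and rose by 1.56 (SE 0.20, adjusted p = 0.000774). Oas3, a synthetase that activates the antiviral RNase L, had 14.1 to 20.6 CPM in Tyk2ΔIEC and 2.90 to 9.14 CPM in Tyk2fl/fl tumors (1.35, SE 0.25, adjusted p = 0.00399). Ifit1, Ifit3, Apol6, Apol9a, Apol9b and Apol10b rose by 1.08 to 1.40. Ifit1 and Apol9b each lost the call when any of 3 libraries was left out, and Apol6 without Tyk2ΔIEC replicate 1. Without the 3 Xist-high controls Ifit1, Ifit3 and Apol9b were under 2-fold (0.86, 0.91 and 0.91). Rsad2 (viperin, an inhibitor of viral replication) and Ifi44 lay close to the 2-fold limit at 1.00 and 1.04, and lost their calls when any of 6 and of 4 libraries was left out. With Tyk2fl/fl replicates 5 to 7 as the only controls 12 members of the list were higher, and without the 3 Xist-high controls 7.

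Interferon γ-induced GTPases, which coat and break the vacuoles of intracellular pathogens, rose as well. Of 20 tested, 10 were higher and none was lower, against 1.48% of all genes higher, and 18 were higher by the adjusted p alone, against 10.2%, with a median of 1.01. Tgtp1 had 12.4, 8.82, 11.2 and 9.58 CPM in Tyk2ΔIEC tumors. In Tyk2fl/fl tumors it had 1.16 to 6.56 CPM (median 1.37), with replicates 1 and 4 at 3.93 and 6.56 CPM and the other controls at or below 1.71 CPM. It rose by 2.08 (SE 0.45, adjusted p = 0.00849). Gbp2, a guanylate-binding protein, had 140, 123, 162 and 192 CPM in Tyk2ΔIEC tumors, against 25.7 to 110 CPM (median 31.7) in Tyk2fl/fl tumors, of which replicates 1 and 4 were again the highest (1.6, SE 0.37, adjusted p = 0.0126). Gbp3 (1.21) and Igtp (1.20) rose as well. Members of this family resemble each other in sequence, so that their reads may be divided between copies. The count depended on the libraries. It was 5 without Tyk2ΔIEC replicate 3, 6 without Tyk2ΔIEC replicate 1, 13 with Tyk2fl/fl replicates 5 to 7 as the only controls, and 2 with replicates 1 to 4 as the only controls.

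Antigen presentation followed on the class I side. Of 25 class I genes 6 were higher and none lower (median 0.60), against 1.48% of all genes higher, and 16 were higher by the adjusted p alone, against 10.2%. Tap1, a subunit of the peptide transporter into the endoplasmic reticulum, had 98.1, 103, 89.1 and 78.6 CPM in Tyk2ΔIEC tumors, against 26.1 to 66.3 CPM (median 36.0) in Tyk2fl/fl tumors (1.07, SE 0.24, adjusted p = 0.0109). Its call was lost without Tyk2fl/fl replicate 2 and without replicate 5. The nonclassical class I gene H2-Q7 had 85.1, 122, 67.0 and 47.6 CPM in Tyk2ΔIEC tumors, against 7.44 to 52.2 CPM (median 18.1), and the groups overlapped through Tyk2fl/fl replicate 1. It rose by 1.75 (SE 0.43, adjusted p = 0.0158), but not without Tyk2ΔIEC replicate 2 (adjusted p = 0.0662). H2-Q genes are near copies of each other, and their counts are uncertain in this respect. Only 1 class I gene was higher without Tyk2ΔIEC replicate 2 and none with Tyk2fl/fl replicates 1 to 4 as the only controls, where the median was 0.47. Of 13 class II genes 1 was higher, Ciita, the transactivator of the class II genes (9.38 to 17.5 CPM in Tyk2ΔIEC against 2.79 to 9.61 CPM in Tyk2fl/fl tumors, 1.22, adjusted p = 0.0139). It was not called without Tyk2ΔIEC replicate 2 (adjusted p = 0.0578), and the class II median was 0.23.

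Ido1, which degrades tryptophan along the kynurenine path, had 34.6, 26.2, 47.4 and 36.6 CPM in Tyk2ΔIEC tumors, against 2.67 to 20.7 CPM (median 4.18) in Tyk2fl/fl tumors. The groups did not overlap, and the change was 2.15 (SE 0.53, adjusted p = 0.0156). It was 3.17 with Tyk2fl/fl replicates 5 to 7 as the only controls and 1.67 (adjusted p = 0.0669) with replicates 1 to 4, and without Tyk2ΔIEC replicate 3 its adjusted p was 0.0562. No other of 9 tryptophan and kynurenine enzymes was called. Of 14 immune checkpoint genes 2 were higher, Cd274 and Tnfrsf14, and 1 was lower, Pdcd1, against 1.48% and 1.64% of all genes, and 5 had a positive log2 fold change (median -0.18). Cd274 had 14.4, 13.3, 16.3 and 24.8 CPM in Tyk2ΔIEC tumors, against 6.05 to 11 CPM (median 8.20) in Tyk2fl/fl tumors (1.08, SE 0.19, adjusted p = 0.00339), and fell just under 2-fold without Tyk2ΔIEC replicate 4. Tnfrsf14, which binds the inhibitory receptor Btla, had 7.26, 9.23, 7.76 and 6.49 CPM, against 2.15 to 3.93 CPM (median 2.47) in Tyk2fl/fl tumors (1.5, SE 0.17, adjusted p = 0.00046). Its call was kept when each library was left out in turn. Pdcd1, the receptor of Cd274 on T cells, had 1.37 to 1.66 CPM in Tyk2ΔIEC and 1.32 to 4.32 CPM in Tyk2fl/fl tumors and fell by 1.00 (adjusted p = 0.0305), a call that was lost when any of 7 libraries was left out. Of 23 chemokines, Cxcl10 (1.14), which attracts activated T cells, and Ppbp (2.51), a platelet chemokine, were higher, and Ccl7 (-1.18) and Ccl22 (-1.0) lower. Of these only Ccl7 kept its call when each library was left out in turn, and with Tyk2fl/fl replicates 5 to 7 as the only controls it was -0.85 (adjusted p = 0.077). Cxcl9 had 26.8 to 51.9 CPM in Tyk2ΔIEC and 5.41 to 37.8 CPM in Tyk2fl/fl tumors and did not pass the test (1.07, adjusted p = 0.136).

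Tyk2+/+ tumors, which had intact Tyk2 in every cell and the depth of the Tyk2ΔIEC libraries, did not lie with the Tyk2fl/fl tumors in these genes. In a fit over all 17 libraries 18 of 17252 genes were higher (0.104%) and 50 lower (0.29%) in Tyk2ΔIEC than in Tyk2+/+ tumors, and 244 were higher (1.41%) and 161 lower (0.933%) in Tyk2+/+ than in Tyk2fl/fl tumors. The contrasts share libraries, so their values are only given side by side. Type I interferon-stimulated genes had a median of -0.19 in Tyk2ΔIEC over Tyk2+/+ tumors, with none higher, and of 0.86 in Tyk2+/+ over Tyk2fl/fl tumors, with 16 of 46 higher. Interferon γ-induced GTPases had medians of -0.25 (none higher) and 1.35 (17 of 20 higher), and class I genes of -0.35 (none higher) and 1.00 (12 of 25 higher). Ido1 had 26.2 to 47.4 CPM in Tyk2ΔIEC and 28.6 to 85.2 CPM in Tyk2+/+ tumors. The mean log2 CPM of type I interferon-stimulated genes was 4.19 to 4.57 in Tyk2ΔIEC, 3.33 to 3.98 in Tyk2fl/fl and 4.31 to 4.96 in Tyk2+/+ tumors. Breeding, housing and sequencing of the floxed and Tyk2+/+ mice cannot be told apart from genotype here.

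**Figure D3:**
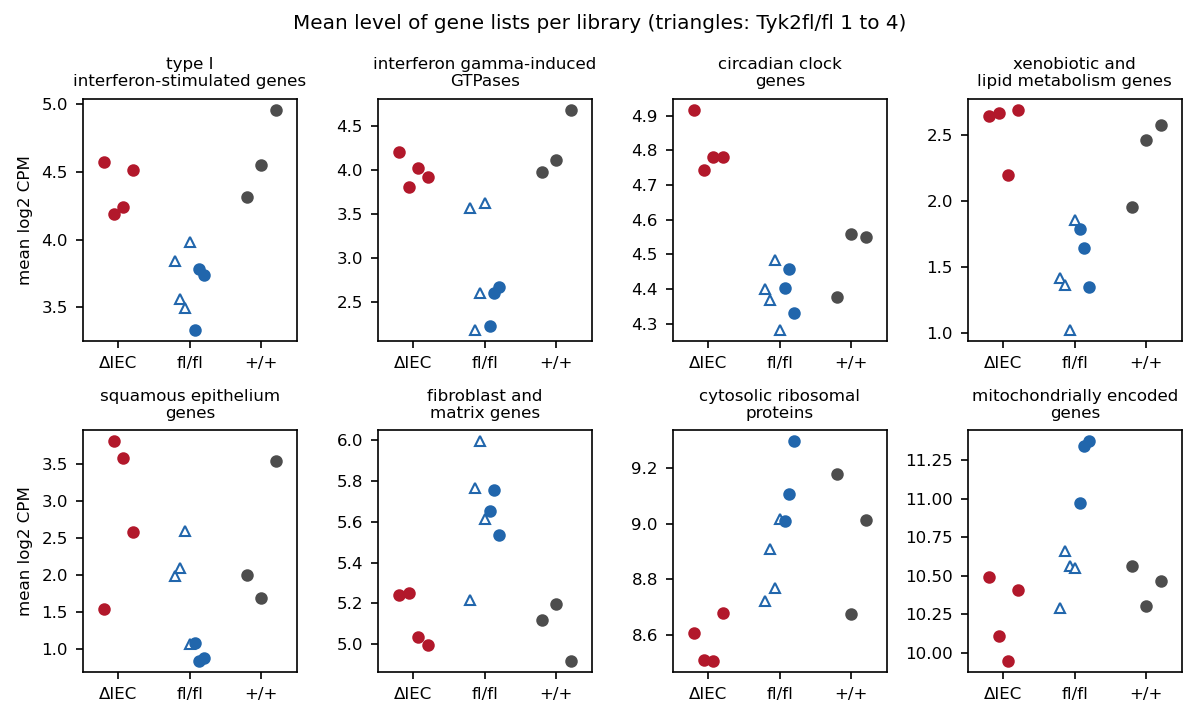
Mean log2 CPM (y axes) over the tested members of 8 gene lists in each Tyk2ΔIEC (red), Tyk2fl/fl (blue, open triangles for replicates 1 to 4) and Tyk2+/+ (grey) library. Clock genes were at 4.74 to 4.92 in Tyk2ΔIEC tumors, above every Tyk2fl/fl (4.28 to 4.48) and Tyk2+/+ (4.38 to 4.56) library, whereas type I interferon-stimulated genes overlapped between Tyk2ΔIEC (4.19 to 4.57) and Tyk2+/+ (4.31 to 4.96) tumors.

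A few circadian clock genes rose in Tyk2ΔIEC tumors, Per2 and Per3 also against Tyk2+/+ tumors. The clock is a feedback loop in which Clock and Arntl bind E-boxes (CACGTG) and drive Per and Cry genes, whose products then block them, while Dbp, Tef and Hlf act through D-boxes (TTATGTAA). Of 22 clock genes 4 were higher and none lower, against 1.48% of all genes higher, and 8 were higher by the adjusted p alone, against 10.2%, with a median of 0.23. The other 14 did not pass the test. Per2, a repressor of the loop, had 49.4, 33.6, 35.6 and 33.3 CPM in Tyk2ΔIEC tumors, against 11.1 to 18 CPM (median 15) in Tyk2fl/fl tumors (1.34, SE 0.13, adjusted p = 0.000199). Per3, its paralog, had 33.1, 26.2, 30.6 and 24.9 CPM, against 9.35 to 16.1 CPM (median 13.0) in Tyk2fl/fl tumors (1.18, SE 0.15, adjusted p = 0.000702). Tef, a D-box activator, had 69.1, 62.4, 64.9 and 53.7 CPM, against 24.4 to 35 CPM (median 28.8) in Tyk2fl/fl tumors (1.11, SE 0.10, adjusted p = 9.69e-05). None of these 3 genes overlapped between the groups. Against Tyk2+/+ tumors, Per2 (1.14, adjusted p = 0.00229) and Per3 (1.11, adjusted p = 0.00675) were higher by the same test, and Tef was just under 2-fold (0.98, adjusted p = 0.00105). Their log2 fold changes in Tyk2+/+ over Tyk2fl/fl tumors were 0.20, 0.07 and 0.13. Dbp (0.67), Ciart (0.85), Cry1 (0.42) and Cry2 (0.72) passed the adjusted p without reaching 2-fold, and Arntl (0.23), Clock (0.25), Nr1d1 (0.11) and Per1 (-0.22) did not pass. The number of clock genes called was 4 whichever library was left out and with Tyk2fl/fl replicates 5 to 7 alone. The hour at which tumors were taken is not given in the sources used here, and its part in the result was not tested.

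The promoters of the clock genes called differ in these letters, and Per3 and Tef are shown as the 2 with an entry in the table. Per3 (chr4:151044616-151044915, minus strand) held the D-box at -205 and -158 from the start and no E-box. Tef (chr15:81802423-81802722, plus strand) held the E-box at -127 and no D-box. The D-box was found in 0.969% and the E-box in 7.20% of all promoters.
Per3: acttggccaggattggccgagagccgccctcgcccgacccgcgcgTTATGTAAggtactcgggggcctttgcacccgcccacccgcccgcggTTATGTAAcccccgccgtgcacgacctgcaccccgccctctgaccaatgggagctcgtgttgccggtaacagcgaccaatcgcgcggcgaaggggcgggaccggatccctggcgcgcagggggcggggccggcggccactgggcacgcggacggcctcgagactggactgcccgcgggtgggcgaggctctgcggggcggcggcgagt
Tef: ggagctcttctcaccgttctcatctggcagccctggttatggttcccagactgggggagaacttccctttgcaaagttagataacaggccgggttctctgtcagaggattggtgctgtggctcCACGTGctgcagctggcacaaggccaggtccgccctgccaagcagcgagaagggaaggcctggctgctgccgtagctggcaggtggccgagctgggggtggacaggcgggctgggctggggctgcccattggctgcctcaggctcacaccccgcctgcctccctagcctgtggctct

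Of 25 genes of xenobiotic, bile acid and lipid metabolism 11 were higher and none lower, against 1.48% of all genes higher, with a median of 1.08. By the adjusted p alone 12 were higher, so that 13 did not pass the test. Cyp2b10, a cytochrome P450 induced through the nuclear receptor CAR, had 9.40, 11.3, 14.9 and 8.46 CPM in Tyk2ΔIEC tumors, against 1.88 to 5.96 CPM (median 3.57) in Tyk2fl/fl tumors (1.66, SE 0.27, adjusted p = 0.00229). Fmo2, a flavin monooxygenase, had 12.9, 6.08, 6.05 and 6.69 CPM, against 1.66 to 4.01 CPM (median 2.5; 1.62, SE 0.26, adjusted p = 0.00218). Abcg8, which with Abcg5 exports sterols into the lumen, had 8.45, 11.2, 15.5 and 13.3 CPM, against 3.22 to 7.59 CPM (median 4.97; 1.17, SE 0.25, adjusted p = 0.00755). Cps1, an enzyme of the urea cycle, rose by 2.04, the carboxylesterase Ces2a by 1.64 and the monooxygenase Fmo1 by 1.20. Of these, Cps1 and Ces2a were not called when single libraries were left out (adjusted p up to 0.095 and 0.167), whereas Cyp2b10, Fmo2 and Abcg8 were. Of the receptors that sense xenobiotics and bile acids, Nr1i2 (0.10), Nr1i3 (0.12) and Nr1h4 (-0.08) were not called. The receptor gene Nr1h5 of the same list was called higher (1.33, adjusted p = 0.0182), but not without Tyk2ΔIEC replicate 1 or without replicate 3. The count of 11 became 6 without Tyk2ΔIEC replicate 2 and with Tyk2fl/fl replicates 5 to 7 as the only controls, and the median remained near 1 (1.14 and 1.01). The median was 0.16 in Tyk2ΔIEC over Tyk2+/+ and 0.78 in Tyk2+/+ over Tyk2fl/fl tumors.

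Squamous epithelial genes belong to stratified epithelia such as that of the anus and esophagus and not to colon mucosa. Of 17 tested, 6 were higher and none lower in Tyk2ΔIEC tumors, against 1.48% of all genes higher, with a median of 1.68, and 1 was lower by the adjusted p alone. Krt4, a keratin of stratified mucosa, had 10.1, 19.9, 14.9 and 7.40 CPM in Tyk2ΔIEC tumors, against 2.36 to 4.77 CPM (median 2.81) in Tyk2fl/fl tumors (2.12, SE 0.25, adjusted p = 0.000599). Krt15, a keratin of basal cells, had 58.9, 59.3, 57.3 and 33.3 CPM, against 7.22 to 22.1 CPM (median 11.3; 1.89, SE 0.29, adjusted p = 0.00179). Dsg4, a desmosomal cadherin, had 6.22, 5.16, 5.46 and 3.65 CPM, against 0.653 to 3.22 CPM (median 0.892; 1.96, SE 0.40, adjusted p = 0.0069). These 3 genes did not overlap between the groups, as was the case for 15.3% of all genes. Psca and Spink5, by contrast, were highest in Tyk2ΔIEC replicates 2 and 3, and voom called neither (adjusted p = 0.0858 and 0.0680). Sprr2a2 lost its call when any of 6 libraries was left out. Psca had 0.285, 31.9, 24.1 and 2.03 CPM in Tyk2ΔIEC tumors, against 0.116 to 2.64 CPM (median 0.238), and Spink5, a protease inhibitor of the epidermis, 0.142, 11.6, 5.27 and 0.760 CPM, against 0 to 0.562 CPM (median 0.170). Krt5, the basal keratin that defines stratified epithelium, did not pass the test (2.26, SE 1.35, adjusted p = 0.259). It had 0.237, 98.7, 51.6 and 11.7 CPM in Tyk2ΔIEC tumors, and in Tyk2fl/fl tumors 8.65, 11.9 and 38.3 CPM in replicates 1 to 3 but at most 0.188 CPM in replicates 4 to 7. With replicates 5 to 7 as the only controls its adjusted p was 0.0157 and 8 genes of the list were higher. The tested genes of the list summed to 172 to 502 CPM after TMM scaling in Tyk2ΔIEC and to 110 to 293 CPM in Tyk2fl/fl tumors. The median of the list was 0.45 in Tyk2ΔIEC over Tyk2+/+ tumors, with 1 higher, and 0.67 in Tyk2+/+ over Tyk2fl/fl tumors, with 4 higher. The part of anal epithelium in these samples was not tested.

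**Figure D4:**
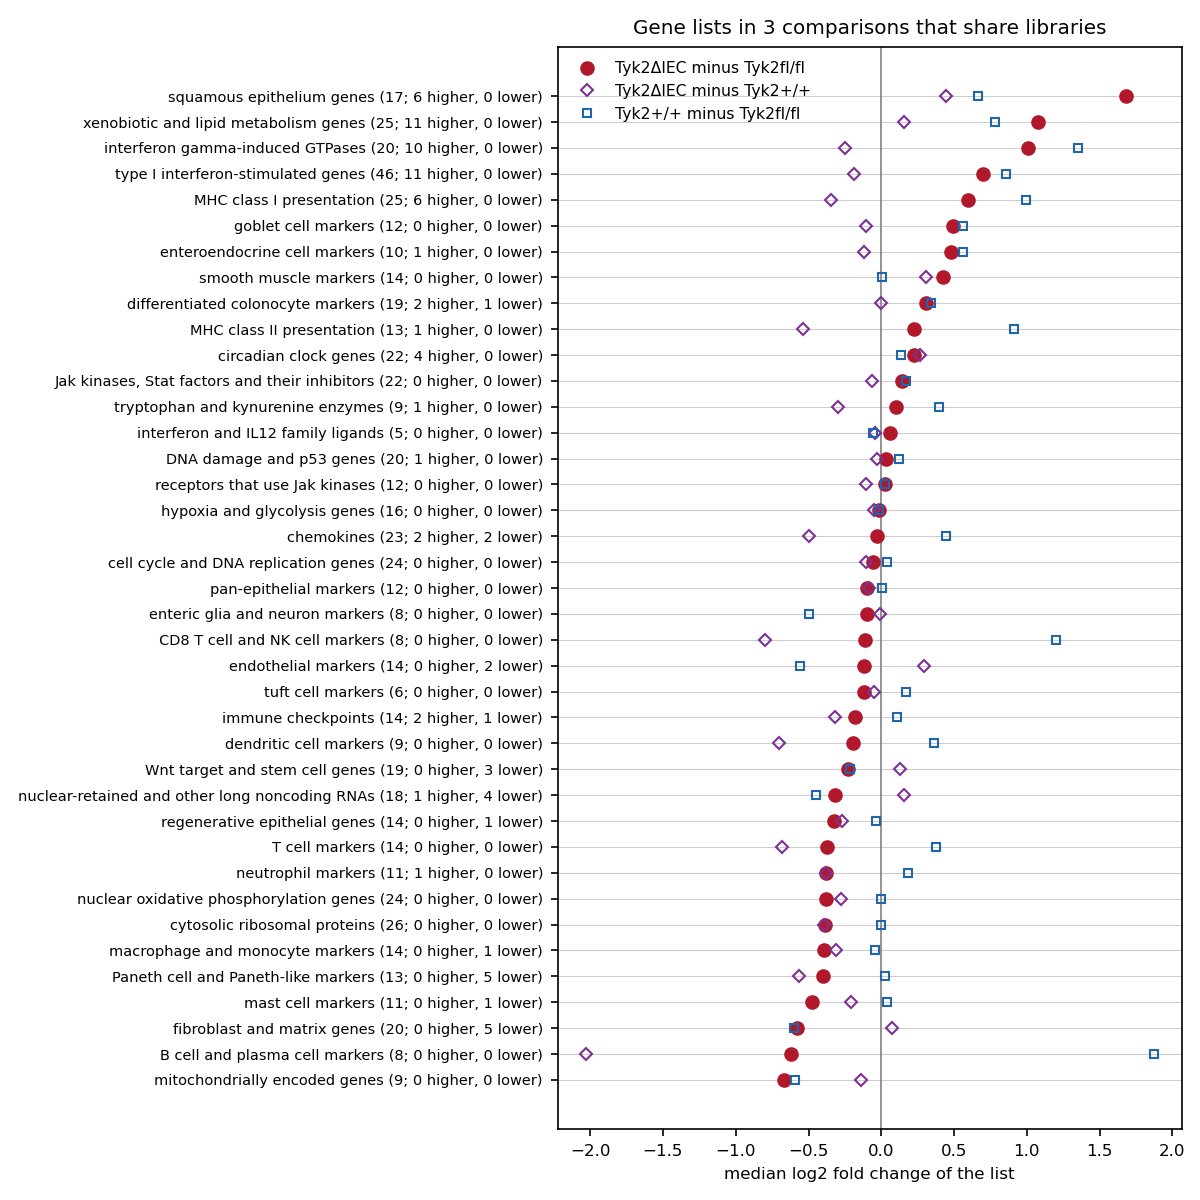
Median log2 fold change (x axis) of each gene list in Tyk2ΔIEC minus Tyk2fl/fl (red circles), Tyk2ΔIEC minus Tyk2+/+ (violet diamonds) and Tyk2+/+ minus Tyk2fl/fl (blue squares). Labels give the genes tested and those called higher and lower in Tyk2ΔIEC over Tyk2fl/fl tumors, and the contrasts share libraries. Interferon γ-induced GTPases had medians of 1.01, -0.25 and 1.35, and circadian clock genes of 0.23, 0.27 and 0.13.

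Among the differentiated lineages of the colon epithelium changes were few, and those of Paneth-type defensins ran opposite to the interferon genes. The colon normally holds hardly any Paneth cells, which secrete antimicrobial peptides in the small intestine. Of 13 Paneth cell genes tested none was higher and 5 were lower, all of them α-defensins, against 1.64% of all genes lower. Defa17 had 7.17, 5.36, 8.34 and 10.2 CPM in Tyk2ΔIEC tumors, against 13.6 to 30.6 CPM (median 18.9) in Tyk2fl/fl tumors, without overlap (-1.32, SE 0.25, adjusted p = 0.00506). Defa3, Defa21, Defa22 and Defa30 fell by 1.27 to 1.5. The remaining Paneth genes were not called. Lyz1, lysozyme, had 421, 776, 1046 and 991 CPM in Tyk2ΔIEC and 588 to 1324 CPM in Tyk2fl/fl tumors, and Mmp7, which activates defensins, 387 to 668 CPM against 390 to 747 CPM. Defensin genes are short near copies of each other, and how reads were divided between them is uncertain. Defa17 kept its call whichever library was left out, but only 1 defensin was called without Tyk2ΔIEC replicate 2 or without replicate 3, 2 with Tyk2fl/fl replicates 5 to 7 as the only controls, and none after a correction for gene length and GC content.

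Pyy, the hormone of L cells in the distal gut, had 50.7, 47.2, 58.2 and 58.3 CPM in Tyk2ΔIEC tumors, against 1.44 to 25 CPM (median 10.3) in Tyk2fl/fl tumors, and rose by 2.04 (SE 0.48, adjusted p = 0.0126). Its groups did not overlap, and the call was kept whichever library was left out. No other of 10 enteroendocrine genes was called (Gcg 0.90, Chga 0.42). No goblet cell gene was called of 12 tested (median 0.49). Of 19 genes of mature colonocytes, Clca4a and Cyp2c55 were higher. Both lost their calls without Tyk2ΔIEC replicate 4 and without several other libraries. Cyp2c55 had 1.57, 6.34, 1.46 and 68.5 CPM in Tyk2ΔIEC tumors, against 0.197 to 6.48 CPM (median 0.652) in Tyk2fl/fl tumors. Of 19 Wnt target and stem cell genes, Wnt2, Rspo4 and Sfrp1, 3 secreted regulators made by stromal cells, were lower, with no call in the voom fit and none with Tyk2fl/fl replicates 5 to 7 alone. No gene of the cell cycle was called (24 tested, median -0.05).

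Some fibroblast and matrix genes were lower in Tyk2ΔIEC tumors, while other stromal lists gave few calls. In tumor tissue fewer cells of a type and less RNA per cell cannot be told apart. Of 20 fibroblast and matrix genes 5 were lower and none higher, and 11 were lower by the adjusted p alone, against 9.71% of all genes, with a median of -0.58. Lum, a proteoglycan of collagen fibrils, had 8.40, 7.17, 7.27 and 6.84 CPM in Tyk2ΔIEC tumors, against 8.35 to 23.5 CPM (median 18.6) in Tyk2fl/fl tumors (-1.19, SE 0.23, adjusted p = 0.0054), with overlap at Tyk2fl/fl replicate 7. Sparc, a collagen-binding matrix protein, had 302, 321, 270 and 284 CPM, against 345 to 582 CPM (median 520), without overlap but under 2-fold (-0.77, SE 0.12, adjusted p = 0.00199). Col1a1, the main chain of type I collagen, had 275, 378, 296 and 282 CPM, against 323 to 582 CPM (median 483; -0.64, adjusted p = 0.00927). The count of 5 became 3, 2, 1 and 1 when Tyk2ΔIEC replicates 1, 2, 3 and 4 were left out in turn, with medians of -0.58, -0.64, -0.57 and -0.59, and 2 with Tyk2fl/fl replicates 5 to 7 as the only controls (median -0.62). In Tyk2+/+ over Tyk2fl/fl tumors the median was -0.60, and in Tyk2ΔIEC over Tyk2+/+ tumors 0.08.

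Type IX collagen, which otherwise coats the fibrils of cartilage, was among the genes that fell most. Col9a1 had 2.04, 1.13, 1.56 and 1.27 CPM in Tyk2ΔIEC tumors, against 3.36 to 5.37 CPM (median 3.91) in Tyk2fl/fl tumors (-1.48, SE 0.20, adjusted p = 0.00116). Col9a3 had 35.2, 16.9, 32.1 and 42.8 CPM, against 49.1 to 161 CPM (median 97.9; -1.69, SE 0.37, adjusted p = 0.00933). Neither chain overlapped between the groups, as the rule that named them required and as held for 15.3% of all genes. Both kept their calls whichever library was left out. Spp1 (osteopontin), a phosphoprotein of macrophages and injured epithelium, had 75.1, 52.8, 37.8 and 37.5 CPM, against 95.5 to 234 CPM (median 213; -1.79, SE 0.30, adjusted p = 0.0028). Angpt4, a ligand of the endothelial receptor Tek, had 4.27, 5.05, 3.12 and 2.53 CPM, against 6.52 to 15.7 CPM (median 11.3; -1.61, SE 0.26, adjusted p = 0.00241). Wfdc18, a whey acidic protein family member named after its values were seen, had 258, 246, 206 and 276 CPM, against 463 to 775 CPM (median 650; -1.39, SE 0.14, adjusted p = 0.000198), and lay at 341 to 522 CPM in Tyk2+/+ tumors.

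Smooth muscle markers did not differ by the test and were set by single libraries. Of 14 none was called, with a median of 0.42, and of -1.03 without Tyk2ΔIEC replicate 1. Myh11, the smooth muscle myosin heavy chain, had 226 CPM in Tyk2ΔIEC replicate 1 and 19.6 to 29.8 CPM in the other 3, against 13.4 to 96.4 CPM in Tyk2fl/fl tumors. Of 14 endothelial genes, Gja5 and Madcam1, the addressin that recruits lymphocytes to the gut, were lower, and both lost their calls when single libraries were left out, Tyk2ΔIEC replicate 3 among them. Leukocyte genes gave few calls. No marker of T cells (14 tested, median -0.38), of CD8 T and NK cells (8 tested, median -0.11), of B and plasma cells (8 tested, median -0.62) or of dendritic cells (9 tested, median -0.19) was called. Log2 fold changes were positive in 1 T cell, 3 CD8 T and NK cell, 1 B and plasma cell and 3 dendritic cell markers. By the adjusted p alone 1 CD8 T and NK cell marker was higher and 1 dendritic cell marker lower. In Tyk2ΔIEC over Tyk2+/+ tumors these medians were -0.68, -0.80, -2.03 and -0.71. There 2 CD8 T and NK cell and 3 B and plasma cell markers were lower. Of 14 macrophage and monocyte markers Spp1 was lower and 13 had a negative log2 fold change (median -0.40), 3 of them lower by the adjusted p alone. Of 11 mast cell markers Tpsb2, a tryptase, was lower (median -0.47), a call with an adjusted p of 0.0443 that was lost when any of 9 libraries was left out. The pan-leukocyte gene Ptprc had 21.4 to 34.4 CPM in Tyk2ΔIEC and 20.8 to 33.4 CPM in Tyk2fl/fl tumors. Cd8a was low in both groups, at 0.585 to 1.09 CPM and 0.0594 to 1.12 CPM, and did not pass the test (0.81, SE 0.51, adjusted p = 0.289). With Tyk2fl/fl replicates 5 to 7 as the only controls it was 1.33 (adjusted p = 0.0235). Ltf (lactoferrin), of neutrophil granules and glands, was the only neutrophil gene called, at 10.1, 485, 104 and 28.7 CPM in Tyk2ΔIEC and 4.66 to 18.9 CPM in Tyk2fl/fl tumors, and was not called by voom (adjusted p = 0.0665). The median of the 11 neutrophil genes was -0.38.

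Among single protein-coding genes the widest separation was that of Myo18b (5:112688876-112896362 in GRCm38), an unconventional myosin of striated muscle. It had 7.78, 8.04, 9.66 and 7.45 CPM in Tyk2ΔIEC tumors, against 0.141 to 0.507 CPM (median 0.238) in Tyk2fl/fl tumors. It rose by 4.96 (SE 0.25, adjusted p = 6.09e-07) against Tyk2fl/fl and by 4.31 (adjusted p = 2.9e-06) against Tyk2+/+ tumors, which had 0.359 to 0.481 CPM. Its call was kept whichever library was left out. Cyp2f2, a cytochrome P450 of the airway, had 2.75, 36.9, 5.12 and 2.13 CPM in Tyk2ΔIEC and 0.0314 to 1.94 CPM in Tyk2fl/fl tumors, and without Tyk2ΔIEC replicate 2 its adjusted p was 0.0609. Kcnab1 (a potassium channel subunit), Sstr1 (a somatostatin receptor) and Tex19.1 (of germ cells) rose by 2.42, 2.04 and 1.95, at levels of at most 1.71, 0.928 and 1.13 CPM in Tyk2ΔIEC tumors. Kcnab1 lost its call without Tyk2ΔIEC replicate 2 or 3 and Tex19.1 without replicate 2. Gm15446, a gene of unknown function, ranged from 0.464 to 16.8 CPM in Tyk2ΔIEC tumors, against 0.0314 to 0.446 CPM in Tyk2fl/fl tumors (4.65, adjusted p = 0.00341), and from 2.93 to 7.38 CPM in Tyk2+/+ tumors. Atm, the kinase that signals double-strand breaks, had 44.9, 43.4, 48.9 and 44.9 CPM, against 13.3 to 27.8 CPM (median 21.4; 1.07, SE 0.16, adjusted p = 0.00166). No other of 20 DNA damage and p53 genes was called. Atm fell under 2-fold without Tyk2fl/fl replicate 7 and after the correction for gene length and GC content (0.83). It also did so with Tyk2fl/fl replicates 1 to 4 as the only controls (0.86) and with the replicate number as a block (0.87).

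The protein-coding genes that fell most among those called without overlap included copies of other genes. Rbm8a2, a retrocopy of the exon junction component Rbm8a, had 0.285, 0.155, 0.195 and 0.253 CPM in Tyk2ΔIEC tumors, against 1.6 to 2.92 CPM (median 1.95; -3.22, SE 0.27, adjusted p = 6.1e-05). Tyk2+/+ tumors had 0.289 to 0.431 CPM. Eif3j2, a copy of the translation initiation factor gene Eif3j1, fell by 1.48 and Gm3839 and Gm11273 by 2.70 and 2.45. Aqp5 (a water channel of glands), Gdf6 (a bone morphogenetic protein family member), Prss35 (a protease-like protein) and Depp1 fell by 2.51, 2.34, 1.72 and 1.61.

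Processed pseudogenes, copies of mature mRNAs inserted elsewhere in the genome, made up most of the lower genes. Of 615 tested, 173 were lower and 7 higher, with a median of -0.70. In Tyk2ΔIEC over Tyk2+/+ tumors 1 was lower and the median was -0.13, and in Tyk2+/+ over Tyk2fl/fl tumors 84 were lower and the median was -0.51. They took 0.0934% to 0.101% of counts in Tyk2ΔIEC, 0.135% to 0.151% in Tyk2fl/fl and 0.0937% to 0.108% in Tyk2+/+ libraries. AC122119.2 had 0.380, 0.258, 0.195 and 0.456 CPM in Tyk2ΔIEC tumors, against 9.99 to 12.2 CPM in Tyk2fl/fl and at most 0.433 CPM in Tyk2+/+ tumors (-5.10, SE 0.19, adjusted p = 3.51e-08). Gm12468 had 1, 0, 0 and 2 counts in Tyk2ΔIEC libraries, against 32 to 70 counts in Tyk2fl/fl libraries, and was lower (adjusted p = 0.000261). Gm7266 had no count in any Tyk2ΔIEC library and 0.171 to 0.475 CPM in Tyk2fl/fl tumors, at least 2.15-fold lower when 3 counts per library are taken as the floor. Reads of pseudogenes can come from their parent genes. Read depth, library preparation and genotype cannot be told apart in this class.

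Some other noncoding classes held more higher than lower genes. Of 510 genes of the class TEC, regions of the annotation that await experimental evidence, 53 were higher and 15 lower, of 75 sense intronic transcripts 12 and 6, and of 53 small nucleolar RNA genes 5 and 0, against 1.48% of all genes higher and 1.64% lower. Of 475 antisense genes 7 were higher and 5 lower, and of 66 transcribed processed pseudogenes 1 and 7. Within protein-coding genes the fold change moved with length. The median was -0.26 in the shortest 10% of genes (66 to 1717 exonic bases) and 0.21 in the longest (9749 to 123179 bases), and 34 of the 71 lower protein-coding genes lay in the shortest 10%. Log2 levels were also taken as deviations from each gene's mean over the 17 libraries. Their slope on log2 length was 0.040 to 0.107 in Tyk2ΔIEC, -0.126 to -0.00146 in Tyk2fl/fl and -0.036 to 0.018 in Tyk2+/+ libraries. This slope moved with the genotype, and its part in the results on short genes was not tested beyond a correction for length and GC content. With that correction 43 protein-coding genes were lower.

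**Figure D5:**
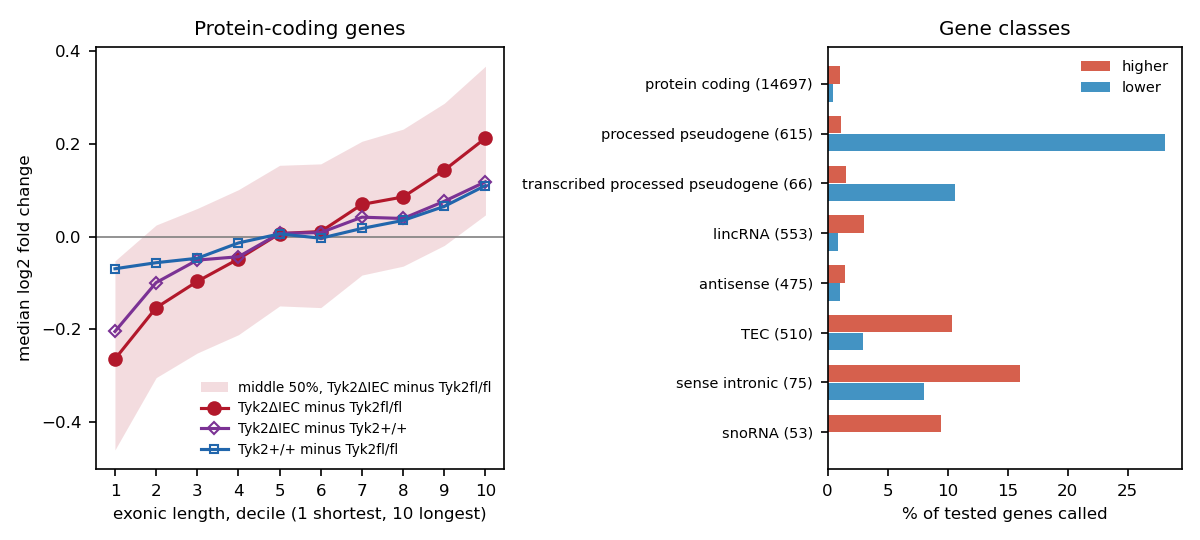
Left, the median log2 fold change (y axis) of protein-coding genes in 10 bins of exonic length (x axis) in the 3 contrasts, with the middle 50% of genes shaded for Tyk2ΔIEC minus Tyk2fl/fl. Right, the percent of tested genes of each class called higher or lower in Tyk2ΔIEC tumors, with the number tested in brackets. The median ran from -0.26 to 0.21 with length, and 28.1% of processed pseudogenes were lower.

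Genes of ribosomes and respiration were lower by small amounts in Tyk2ΔIEC than in Tyk2fl/fl tumors. Of 26 cytosolic ribosomal protein genes none was called, but 21 were lower by the adjusted p alone, against 9.71% of all genes, with a median of -0.39, as Rps28 (-0.77) and Rps29 (-0.71), while Rps6 (-0.14) and Rpl3 (-0.13) did not pass the test. Of 24 nuclear genes of oxidative phosphorylation none was called and 15 were lower by the adjusted p alone (median -0.38). With the correction for length and GC content the medians were -0.21 for the ribosomal and -0.12 for the respiratory genes. Of 9 mitochondrially encoded genes with enough reads 5 were lower by the adjusted p alone (median -0.67). mt-Co1, a subunit of cytochrome oxidase, had 8039, 6223, 5615 and 7021 CPM in Tyk2ΔIEC tumors, and in Tyk2fl/fl tumors 7887 to 10110 CPM in replicates 1 to 4 and 12589 to 15946 CPM in replicates 5 to 7. With replicates 5 to 7 as the only controls 5 mitochondrial genes were called lower (median -1.06), and with replicates 1 to 4 none (median -0.33). In Tyk2ΔIEC over Tyk2+/+ tumors the medians were -0.39 for the ribosomal, -0.28 for the nuclear respiratory and -0.14 for the mitochondrially encoded genes. In Tyk2+/+ over Tyk2fl/fl tumors the corresponding medians were 0.0012, -0.0047 and -0.59.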

How the data were processed

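Poly(A) RNA of dissected colon tumors was sequenced as directional, single-end libraries (75 bases). According to the methods, the authors aligned reads with STAR 2.6.1a and deposited raw gene counts on Gencode mouse release 23. The processing notes name the mouse build GRCm38 (mm10), while GRCh38 is printed in the methods, and the identifiers are those of mouse. Classes, coordinates and exonic lengths were taken here from GENCODE M21. Of 55421 identifiers, 181 had no match.

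The deposited counts were tested as raw counts with edgeR 4.0.16 (R 4.3.3): filterByExpr (minimum count 10, minimum total 15), TMM scaling, quasi-likelihood F test of the 4 Tyk2ΔIEC against the 7 Tyk2fl/fl libraries, and Benjamini-Hochberg adjustment over 17668 genes. A gene was called at an adjusted p under 0.05 and over 2-fold. Each SE is the fold change divided by the root of F. Contrasts with Tyk2+/+ came from a fit of all 17 libraries. In counts simulated for this comparison, 40 of 50 genes changed by a log2 fold of 1 and 26 of 50 changed by -1 were recovered at the adjusted p, as were 47 of 50 and 45 of 50 changed by 2 and -2. Alternatives were DESeq2 1.42.0, limma voom 3.58.1, other scalings and filters, thinned controls, length and GC correction, and each library left out in turn. Tests with Tyk2fl/fl replicates 5 to 7 or 1 to 4 as the only controls were added after seeing the data.

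Genes were named by rule: the 12 protein-coding genes with the largest rise and fall among called genes whose libraries did not overlap, the 4 of other classes, in each list up to 3 called members ranked by adjusted p, genes named in the study, Tyk2 and sex-linked genes. For genes named by their rise or fall, the lack of overlap was thus set by the rule and is no further support. Further genes were named after their values were seen, among them Psca, Spink5, Krt5, Cps1, Sparc, Col1a1, Lyz1, mt-Co1 and AC122119.2. The members and lists were chosen with earlier results of these data known. Levels of near-identical copies and pseudogenes are uncertain because the counting may divide their reads. Replicate numbers were not treated as pairs. The 3 Tyk2-deficient germline libraries entered the fit of all libraries only. Some genes of the lists are counted in them but not reported singly here.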

Additional observations from a re-analysis of the deposited data

Results flagged for a closer look

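In 27 of 268 tests of a gene within a genotype, a single library lay far from the others of its genotype by Dixon's test, of which chance gives about 1 in 20. Values are given against the range of the other libraries. Tyk2ΔIEC replicate 1 stood apart from the other libraries of its genotype in Per2 (49.4 against 33.3 to 35.6 CPM), Fmo2 (12.9 against 6.05 to 6.69 CPM), Gm43654 (0.332 against 0.537 to 0.567 CPM), Gm15446 (16.8 against 0.464 to 2.23 CPM), Madcam1 (1.28 against 0.342 to 0.464 CPM), Ccl22 (3.94 against 1.5 to 1.67 CPM), Myh11 (226 against 19.6 to 29.8 CPM) and Acta2 (209 against 68.2 to 83.8 CPM). Tyk2ΔIEC replicate 2 did so in Cyp2f2 (36.9 against 2.13 to 5.12 CPM). Tyk2ΔIEC replicate 4 did so in Krt15 (33.3 against 57.3 to 59.3 CPM), Cyp2c55 (68.5 against 1.46 to 6.34 CPM), Sprr2a2 (3.14 against 0.390 to 0.722 CPM), Clca4a (355 against 49.0 to 84.0 CPM) and Epcam (2227 against 1827 to 1885 CPM).

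Tyk2fl/fl replicate 1 stood apart from the other libraries of its genotype in Tnfrsf14 (3.93 against 2.15 to 2.87 CPM), Psca (2.64 against 0.116 to 0.477 CPM) and Lyz1 (1324 against 588 to 899 CPM). Tyk2fl/fl replicate 2 did so in Cyp2c55 (6.48 against 0.197 to 1.68 CPM). Tyk2fl/fl replicate 3 did so in Myo18b (0.507 against 0.141 to 0.290 CPM), Krt4 (4.77 against 2.36 to 3.14 CPM), Twist1 (10.4 against 2.14 to 5.14 CPM) and Krt5 (38.3 against 0.0580 to 11.9 CPM). Tyk2fl/fl replicate 4 did so in Cyp2f2 (1.94 against 0.0314 to 0.815 CPM) and Tpsb2 (17 against 2.19 to 7.34 CPM). Tyk2fl/fl replicate 6 did so in Bc1 (115 against 24.3 to 60.6 CPM) and Pkd1l1 (1.41 against 0.114 to 0.406 CPM). Tyk2fl/fl replicate 7 did so in Kcnab1 (0.942 against 0.0297 to 0.393 CPM). No cause was tested.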

How the results depend on the processing

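Depth limits low genes most, since Tyk2ΔIEC libraries held fewer reads. Of 262 genes higher and 289 lower, 158 and 149 remained in number with at least 1 CPM in 4 libraries, 1799 and 1716 without a fold minimum, and 22 and 69 when tested against 1.5-fold. The lower genes numbered 162 after length and GC correction and 113 with processed pseudogenes left out. Protein-coding genes (150 higher, 71 lower) numbered 1625 and 1397 without a fold minimum and 16 and 8 against 1.5-fold, and the lower ones 46 with voom and 43 after length and GC correction. Processed and transcribed processed pseudogenes lower (180) numbered 74 with the stricter filter, 106 after length and GC correction, 59 against 1.5-fold and 95 with Tyk2fl/fl replicates 1 to 4 as the only controls. The share of higher genes among all calls was 47.5%, against 67.0% with pseudogenes left out and 24.2% against 1.5-fold. Leaving out each library in turn gave 163 to 303 higher and 209 to 334 lower genes, 97 to 174 and 42 to 107 protein-coding genes, and 151 to 179 pseudogenes. The lowest numbers came without Tyk2ΔIEC replicate 2 (163 higher, 97 and 42 protein-coding) or replicate 3 (164 higher, 43 protein-coding lower), and 107 lower protein-coding genes without Tyk2ΔIEC replicate 1. The cause was not tested. DESeq2 (327 and 371), controls thinned to the depth of Tyk2ΔIEC libraries (220 and 233) and the other settings stayed within 1.5 times. The block by replicate number, given below, did not. No named gene called in the comparison changed sign. Some genes that were not called and some list medians did, among them the medians of smooth muscle markers (0.42, and -1.03 without Tyk2ΔIEC replicate 1), mast cell markers (-0.47) and immune checkpoints (-0.18), of which the last 2 were 0.05 and 0.08 with Tyk2fl/fl replicates 5 to 7 as the only controls. Named genes kept their side of the threshold in 3344 values under alternatives, lost the call in 464 and gained it in 29.

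The replicate numbers 1 to 4, shared by both genotypes, did not pair the libraries: deviations of same-numbered libraries correlated at -0.37, -0.10, 0.07 and 0.02. With the replicate number as a block, 104 genes were higher and 125 lower, 70 and 42 of the protein-coding ones and 77 pseudogenes.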
